A study of Mus musculus with 9 samples.

Results

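Cardiac fibroblasts and mural cells are the stromal cells of the ventricle. Fibroblasts secrete and cross-link the extracellular matrix between the cardiomyocytes, and are known by the PDGF receptor Pdgfra and the transcription factor Tcf21. Mural cells, the pericytes and vascular smooth muscle cells, wrap the vessels and are known by the PDGF receptor Pdgfrb, the chondroitin sulfate proteoglycan Cspg4 (NG2) and the signalling regulator Rgs5. Pericytes are recruited to vessels by the ligand Pdgfb from endothelium and are maintained by Notch3, a receptor for ligands on the endothelial surface. The genes described here were named as a list of stromal markers that holds no collagen: 34 genes of the 38293 in the table, 26 of them fibroblast genes and 8 mural genes. Of the 34, 33 were matched to a gene and all 33 passed the filter on low counts. Abcc9os could not be matched by symbol and has no value here.

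RNA was sequenced from ventricles of mice at postnatal day 7 (P7) to compare control hearts with hearts in which cardiomyocytes were to lose Arid1a, which encodes a subunit of the chromatin remodeller SWI/SNF. The control group (n = 5) was Arid1a f/f, with both alleles floxed and no Cre named in the label. The cKO group (n = 4) was aMHC-Cre;Arid1a f/f, in which the αMHC promoter drives Cre in cardiomyocytes. Both groups are therefore homozygous for the floxed allele, and stromal cells are not the cells in which this Cre is designed to act. Whole ventricle was measured, so that a change in the number of cells of a type and a change in RNA per cell cannot be told apart for any gene below. The type of cell in which a gene changed, cardiomyocytes included, cannot be told either.

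Arid1a itself was measured at 128 to 148.1 CPM (counts per 1e+06 counts, with the library total scaled by TMM) in the control libraries and at 100.3 to 112.9 CPM in the cKO libraries, a log2 fold change of -0.39 (SE 0.06; edgeR adjusted p = 0.0013; two-sided exact permutation p = 0.00794, the smallest that 5 against 4 libraries can give). Total counts ran from 31011055 to 40073801, and every member had at least 213 counts in every library. One gene, Rps3a3, divided the libraries into a set under 10 CPM (control replicates 1 and 2, cKO replicates 1 to 3) and a set above it (control replicates 3 to 5, cKO replicate 4). These sets were defined from the data and were named by no label. Values within both sets are given below beside the members that changed. Of the tissue's defining markers, those of cardiomyocytes summed to 65750 to 83850 CPM, whereas all 7 adipocyte genes fell under the filter on low counts.

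Stromal genes moved in both directions in cKO ventricles, and most of them by less than 1.5-fold. Secreted matrix proteins gave the largest rises (Cilp and Mgp), genes of the elastic fibre moved both ways (4 of 7 rose, Lox and Fbln5 among them, and Mfap5 fell), and 2 mural genes gave the largest falls (Vtn and Kcnk3). Among the genes by which these cells are most often recognised, Tcf21 passed higher, by less than 1.5-fold, and Pdgfra, Pdgfrb, Cspg4 and Rgs5 did not pass. Of the proteoglycans, Bgn passed higher and Dcn and Lum did not pass. A gene was called at an edgeR adjusted p under 0.05, corrected over all 15318 genes tested, together with a change over 1.5-fold. By this rule 3 members were called higher (Cilp, Mgp, Lox) and 2 lower (Vtn, Kcnk3). Over all genes tested 6.72% were called, 4.01% higher and 2.72% lower, against 15.2% of the members. The shares over all genes, here and below, were not matched to the members for level. Without the fold threshold 14 members passed, 10 higher and 4 lower, against 16.3% of all genes (8.25% higher, 8.03% lower). The 2 groups of libraries did not overlap in 12 members, 8 higher and 4 lower in cKO, beside 16.7% of all genes (8.16% and 8.58%). The median log2 fold change was 0.11 over the 33 members and 0.01 over all genes tested.

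**Figure D1:**
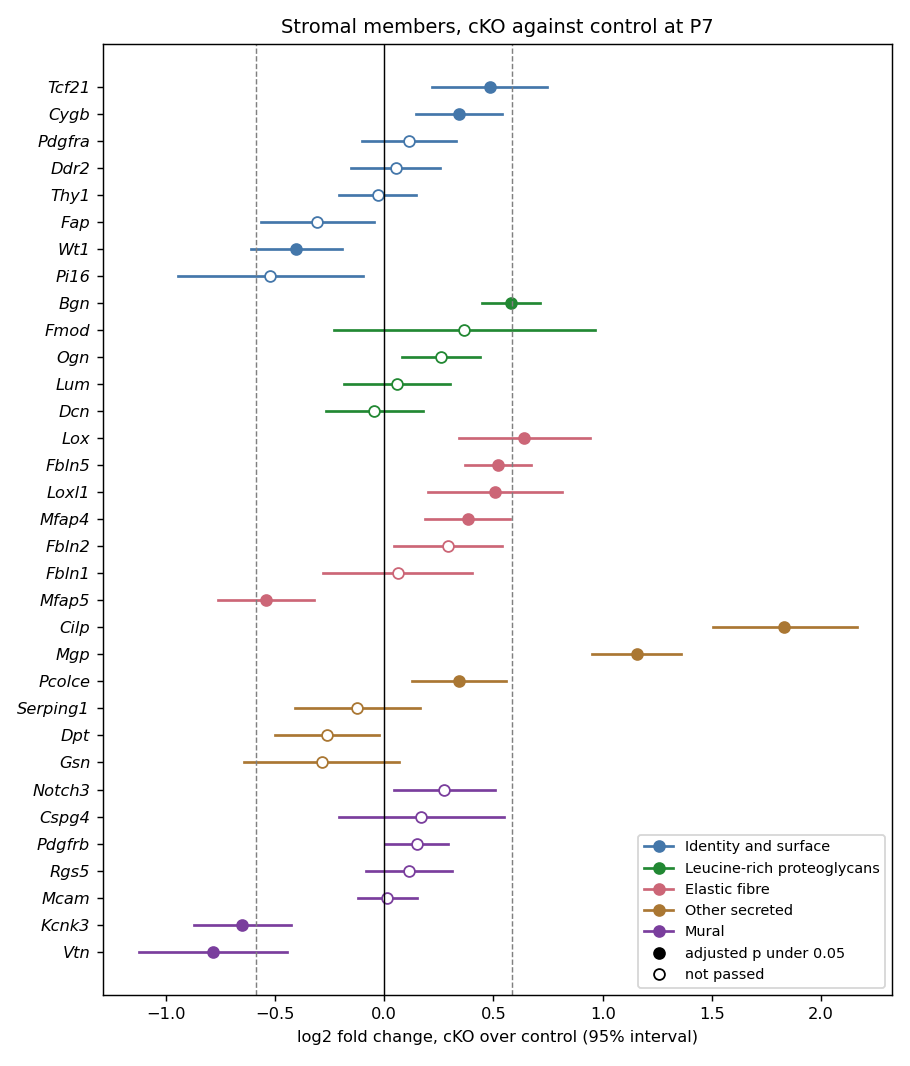
The log2 fold change of cKO over control (x axis) is plotted for each of the 33 stromal genes (y axis), with its 95% interval from the edgeR fit. Filled points passed an adjusted p of 0.05, open points did not, and dashed lines mark a 1.5-fold change. Cilp at 1.83 and Mgp at 1.16 stand to the right of all others, and Vtn at -0.78 and Kcnk3 at -0.65 to the left.

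In control ventricles the members spanned a wide range of levels. Per kb of exon, the highest level was that of the pericyte gene Rgs5, at 199.8 ± 15.4 CPM per kb (SD, n = 5), ahead of the matrix protein dermatopontin (Dpt) at 168.4 ± 13.1 CPM per kb. Decorin (Dcn, 122 ± 9.14 CPM per kb) and lumican (Lum, 103.1 ± 8.06 CPM per kb), both collagen-binding proteoglycans, came next. The lowest were Wt1, at 3.49 ± 0.34 CPM per kb, and Cilp, at 1.68 ± 0.30 CPM per kb. In the ranked order, 26 of the 32 pairs of neighbours overlapped between their control libraries, so that most adjacent ranks were not separated. The pairs that did not overlap lay just after Dpt, Lum, Mgp, Fbln2, Loxl1 and Wt1. Cilp was thus the gene with the lowest control level and the largest rise.

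**Figure D2:**
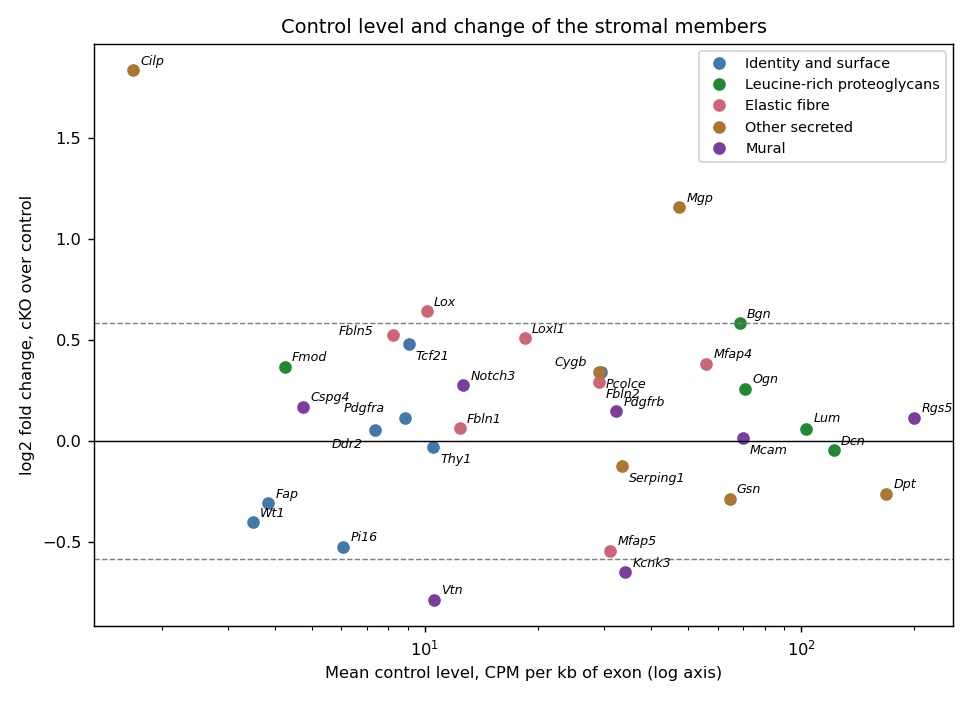
Mean control level in CPM per kb of exon (x axis, log scale) is plotted against the log2 fold change of cKO over control (y axis) for the 33 stromal genes, coloured by role. Dashed lines mark a 1.5-fold change. The 2 largest rises sit at very different control levels, 1.68 CPM per kb for Cilp and 47.5 CPM per kb for Mgp.

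The identity and surface genes of fibroblasts did not move together. Of 8, 2 rose, 1 fell, none was called and 5 did not pass (median log2 fold change 0.01). Tcf21, the transcription factor that marks fibroblast precursors in the heart, was at 24.8, 19.2, 19.1, 20.2 and 23.1 CPM in the controls (replicates 1 to 5, here and below) while the cKO libraries (replicates 1 to 4) had 26.35, 37.3, 25.5 and 29.6 CPM. Every cKO library lay above every control library, with cKO replicate 2 the highest. The log2 fold change was 0.48 (SE 0.12; edgeR adjusted p = 0.0182), and 0.42 and 0.51 within the low and high Rps3a3 sets. Without control replicate 3 the edgeR adjusted p was 0.0505.

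Cygb, a globin of stromal cells, rose from 68.5 ± 8.02 to 86.9 ± 7.02 CPM (log2 fold change 0.34, SE 0.09; edgeR adjusted p = 0.0226), and by 0.20 and 0.42 within the sets. Its exons overlap those of Prcd on the other strand by 201 bases, and whether the counting used strand is not given in the sources used here. It passed in 16 of the 20 alternative fits, and the edgeR adjusted p was 0.0599, 0.0526 and 0.0661 without control replicate 3, control replicate 5 and cKO replicate 2.

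Wt1, a transcription factor of the epicardium, from which many cardiac fibroblasts and mural cells descend, fell. It was measured at 18.9, 24.0, 23.4, 20.6 and 21.2 CPM in control and at 16.9, 15.2, 18.2 and 15.2 CPM in cKO. All cKO libraries lay under all controls, and the log2 fold change was -0.40 (SE 0.09; edgeR adjusted p = 0.0128), with -0.35 and -0.51 within the sets. Of 11 other epicardial genes, 8 had estimates below 0 and 3 above, with a median log2 fold change of -0.36. The 1 that passed, Tbx18, rose (0.59), and it was named after its value was seen. The median within the sets was 1.47 and -0.43. Their summed level ranged from 98.6 to 194.9 CPM in control and from 119.7 to 179.9 CPM in cKO. The part of epicardial tissue in the change of Wt1 was not tested.

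Pdgfra was measured at 77.9, 92.6, 88.8, 86.4 and 98.7 CPM in control and at 109.8, 77.2, 98.0 and 99.8 CPM in cKO. The groups overlapped, since cKO held both the highest and the lowest library. Its log2 fold change was 0.11, with a 95% interval from -0.10 to 0.33. The collagen receptor Ddr2 (0.05, interval -0.15 to 0.26) and the surface protein Thy1 (-0.03, interval -0.21 to 0.14) had estimates as small. Fap, a surface protease of activated fibroblasts, was at -0.31 (edgeR adjusted p = 0.104), and passed without cKO replicate 1 (-0.42; edgeR adjusted p = 0.0238). Pi16, a surface marker of adventitial fibroblasts, was at -0.52 (edgeR adjusted p = 0.0946). Its values differed with the Rps3a3 set: the control mean was 46.2 CPM in the low set and 33.6 CPM in the high set, and the estimate was -0.62 and -0.95 within them. With the set as a term in the edgeR model, Pi16 was called at -0.74 (adjusted p = 0.00031), and DESeq2 gave an adjusted p of 0.0263.

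The 5 small leucine-rich proteoglycans bind collagen fibrils and growth factors. Only biglycan (Bgn) passed the test among them. It was measured at 420.6, 421.3, 405.7, 437.6 and 407.9 CPM in control and at 578.1, 617.1, 624.9 and 685.1 CPM in cKO. The controls lay within a narrow band, and the lowest cKO library was far above the highest of them. The log2 fold change was 0.58 (SE 0.06; edgeR adjusted p = 5.7e-05), a 1.496-fold rise that stopped just short of the 1.5-fold limit, and was 0.53 and 0.72 within the sets.

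The other 4 proteoglycans did not pass. Dcn was measured at 625.7, 758.8, 720.9, 703.2 and 751.8 CPM in control and at 841.8, 574, 700.1 and 645.2 CPM in cKO. The highest and the lowest of the 9 libraries were both cKO, and the log2 fold change was -0.04 (95% interval -0.27 to 0.18). Lum, its neighbour on chromosome 10, ran the same way across the cKO libraries, from 332.2 CPM in replicate 1 to 220.1 CPM in replicate 2 (log2 fold change 0.06, interval -0.18 to 0.30). Osteoglycin (Ogn) had 157.8 to 196.5 CPM in control and 189.5 to 231.9 CPM in cKO, and its edgeR adjusted p of 0.0502 lay just outside the threshold (log2 fold change 0.26, SE 0.08), and inside it in 7 of the 20 alternative fits, DESeq2 among them. Fibromodulin (Fmod) was at 13.5, 9.905, 11.3, 10.6 and 24.9 CPM in control, where replicate 5 stood apart, and at 14.9, 23.2, 17.1 and 17.1 CPM in cKO (log2 fold change 0.37, SE 0.27; edgeR adjusted p = 0.400). Without control replicate 5 it was called, at 0.67.

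Elastic fibres consist of elastin laid on a scaffold of microfibrils, assembled by fibulins and cross-linked by lysyl oxidases. Of the 7 members of this group, 4 rose and 1 fell (median log2 fold change 0.38). Lox, the lysyl oxidase that cross-links collagen and elastin, was measured at 40.6, 38.4, 49.7, 54.1 and 58.9 CPM in control and at 73.3, 67.0, 68.4 and 92.55 CPM in cKO. The groups did not overlap, and the log2 fold change was 0.64 (SE 0.14; edgeR adjusted p = 0.0082). The controls of the low Rps3a3 set averaged 39.5 CPM and those of the high set 54.2 CPM, and the estimates within the sets were 0.82 and 0.77. The 1.5-fold limit was no longer met without control replicate 1 or 2 or cKO replicate 4, when the log2 fold change was as low as 0.53 with the edgeR adjusted p at most 0.0222.

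Its relative Loxl1, which acts on elastin, rose from 60.8 ± 9.10 to 86.3 ± 18.6 CPM (log2 fold change 0.51, SE 0.14; edgeR adjusted p = 0.0307), with 0.32 and 0.56 within the sets. Control replicate 1, at 74.5 CPM, exceeded cKO replicate 3, at 73.8 CPM. Loxl1 passed in 12 of the 20 alternative fits, and its log2 fold change was as low as 0.34 without cKO replicate 2, at an edgeR adjusted p of 0.0622.

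Fbln5, a fibulin needed to place elastin on microfibrils, was measured at 58.6, 56.7, 54.0, 56.2 and 59.2 CPM in control and at 88.0, 76.2, 74.9 and 87.9 CPM in cKO. The groups did not overlap, and the log2 fold change was 0.52 (SE 0.07; edgeR adjusted p = 0.00037), with 0.46 and 0.64 within the sets. Neither Fbln1 (0.06, 95% interval -0.28 to 0.40) nor Fbln2 (0.29, interval 0.04 to 0.54; edgeR adjusted p = 0.109) passed, although Fbln2 did without cKO replicate 1 (0.38; edgeR adjusted p = 0.0313).

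The 2 microfibril-associated proteins of the list moved in opposite directions. Mfap4 rose from 107.6 ± 13.9 to 140.3 ± 6.83 CPM (log2 fold change 0.38, SE 0.09; edgeR adjusted p = 0.0120), with 0.28 and 0.40 within the sets. Mfap5 (MAGP2) was measured at 112, 114.2, 113.6, 108.4 and 109 CPM in control and at 97.9, 70.8, 72.0 and 65.5 CPM in cKO. All cKO libraries were under the controls, with replicate 1 the nearest to them, and the log2 fold change was -0.54 (SE 0.10; edgeR adjusted p = 0.0034), with -0.51 and -0.75 within the sets.

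Among 22 further elastic fibre genes, 6 passed higher and 0 lower, and 3 were called higher. Of the others 5 had estimates below 0, the lowest being Efemp1 at -1.39 (SE 0.63; edgeR adjusted p = 0.183), with 4.39 ± 3.83 CPM in control and 1.69 ± 1.002 CPM in cKO. Elastin (Eln) went from 312.5 ± 76.0 to 783.7 ± 212.0 CPM (log2 fold change 1.33, SE 0.20; edgeR adjusted p = 0.0019). Adamtsl2, a secreted protein that binds microfibrils, rose with a log2 fold change of 1.53 (SE 0.18), and Adamtsl5 with 0.71 (SE 0.20). Fibrillin-1 (Fbn1), the main protein of the microfibril, was at 0.17 (edgeR adjusted p = 0.270). Efemp1 and Fbn1 were chosen for mention after their values were seen.

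The 6 other secreted proteins held the 2 largest rises among the 33 members. Cilp, a matrix protein that is known from cartilage and from cardiac fibroblasts, was measured at 9.33, 6.37, 6.29, 6.70 and 6.92 CPM in control and at 20.7, 29.7, 21.4 and 29.5 CPM in cKO. The lowest cKO library was more than double the highest control, control replicate 1. The log2 fold change was 1.83 (SE 0.15; edgeR adjusted p = 8.7e-06), or 3.56-fold, with 1.61 and 2.14 within the sets. The matrix Gla protein (Mgp), an inhibitor of calcification, was measured at 59.2, 64.4, 50.6, 48.0 and 59.7 CPM in control and at 123, 142.1, 115.8 and 121.4 CPM in cKO. Here too the groups were far apart, with a log2 fold change of 1.16 (SE 0.09; edgeR adjusted p = 7.7e-06), or 2.23-fold, and 1.03 and 1.21 within the sets.

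Pcolce, which enhances the trimming of procollagen, rose from 110.9 ± 9.98 to 140.6 ± 21.0 CPM (log2 fold change 0.34, SE 0.10; edgeR adjusted p = 0.0347), with 0.20 and 0.51 within the sets, but its groups overlapped and it passed in 11 of the 20 alternative fits. It no longer passed when control replicate 2, 3, 4 or 5, or cKO replicate 2 or 4, was left out (edgeR adjusted p up to 0.0999). Its exons overlap those of Fbxo24 on the same strand by 112 bases. Dpt had 267.3 to 318.3 CPM in control and 211.1 to 310.4 CPM in cKO (log2 fold change -0.26; edgeR adjusted p = 0.132), but it passed without cKO replicate 1 (-0.40; edgeR adjusted p = 0.0045). The complement inhibitor Serping1 was at -0.12 (95% interval -0.41 to 0.16). The actin-severing protein gelsolin (Gsn) was at -0.29 (edgeR adjusted p = 0.267), and its level also followed the Rps3a3 set, with control means of 242.1 CPM in the low set and 178.2 CPM in the high set. With the set as a term it passed, at -0.47 (edgeR adjusted p = 0.0013).

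**Figure D3:**
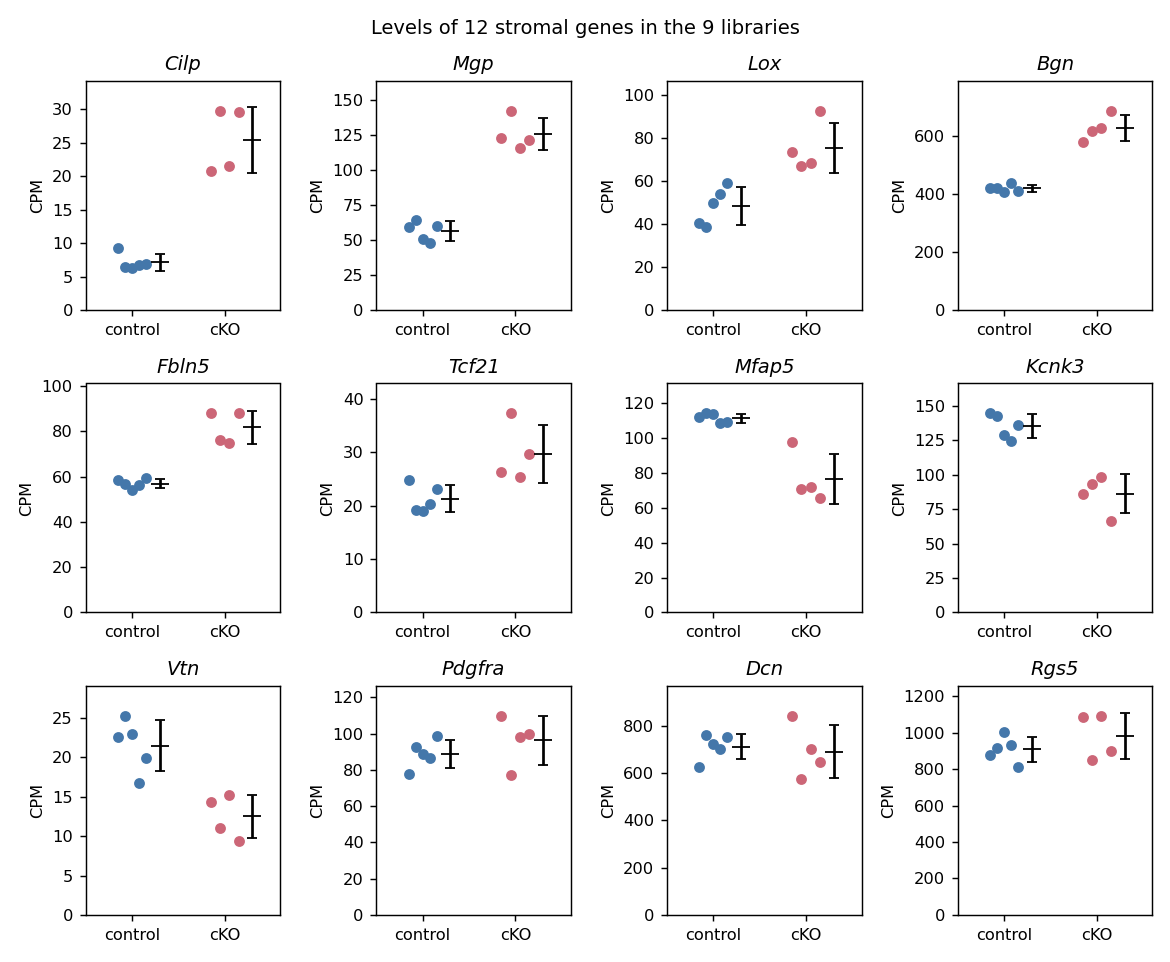
CPM of 12 stromal genes is plotted by library, in blue for control (n = 5) and in red for cKO (n = 4), with the mean and SD in black and each axis starting at 0. Cilp, Mgp, Lox, Bgn, Fbln5 and Tcf21 are higher in every cKO library and Mfap5, Kcnk3 and Vtn lower, whereas Pdgfra, Dcn and Rgs5 overlap.

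Among the mural genes the receptors and surface markers kept overlapping levels, and 2 genes fell. Of 7 tested, 0 rose and 2 passed lower, both of them called, and the median log2 fold change was 0.11. Kcnk3, the background potassium channel TASK-1, which sets membrane potential in vascular muscle and is also found in cardiomyocytes, was measured at 144.6, 143, 129, 124.4 and 135.8 CPM in control and at 86.3, 93.55, 98.7 and 66.75 CPM in cKO. All cKO libraries lay under all controls, with cKO replicate 4 the lowest, and the log2 fold change was -0.65 (SE 0.10; edgeR adjusted p = 0.0011), with -0.63 and -0.96 within the sets. Without cKO replicate 4 it was -0.54 and missed the 1.5-fold limit. Exons of Gm9899 overlap those of Kcnk3 on the other strand by 229 bases.

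Vtn, the adhesive protein vitronectin, which pericytes express, was measured at 22.5, 25.3, 22.9, 16.8 and 19.95 CPM in control and at 14.3, 11, 15.3 and 9.42 CPM in cKO. The highest cKO library was under the lowest control, and the log2 fold change was -0.78 (SE 0.16; edgeR adjusted p = 0.0049), with -0.83 and -1.06 within the sets.

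Pdgfrb had 176.6 ± 12.02 CPM in control and 195.6 ± 11.6 CPM in cKO (log2 fold change 0.15, 95% interval 0.0039 to 0.29; edgeR adjusted p = 0.157). Notch3 was at 0.27 (edgeR adjusted p = 0.104), and at 0.35 without cKO replicate 1 (edgeR adjusted p = 0.0442). Rgs5 was measured at 876.5, 918, 1001, 933.3 and 812 CPM in control and at 1088, 850.0, 1092 and 901.2 CPM in cKO, so that its groups overlapped (log2 fold change 0.11, interval -0.08 to 0.31). Cspg4 (0.17, interval -0.21 to 0.55) and the adhesion protein Mcam (0.01, interval -0.12 to 0.15) did not pass either.

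Of 20 further mural genes tested, 3 passed higher and 2 lower. The 2 called were the ecto-nucleotidase Nt5e, with a log2 fold change of 1.49 (SE 0.09; edgeR adjusted p = 7.5e-07), and Art3, with 0.69 (SE 0.07; edgeR adjusted p = 6.8e-05). Abcc9 and Kcnj8, the 2 subunits of the potassium channel by which cardiac pericytes are often recognised, were at -0.07 and -0.09 and did not pass. One of the 2 that fell, Pln, is a cardiomyocyte gene as well. On the list of 13 smooth muscle genes, 4 rose and 1 fell. Both called genes, Cnn1 (2.78, SE 0.22) and Acta2 (2.10, SE 0.16), are contractile genes, and Acta2 is also known from immature cardiomyocytes and activated fibroblasts. The smooth muscle myosin Myh11 was at -0.30 (edgeR adjusted p = 0.139).

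None of the PDGF or Notch ligands measured passed the test. Of 13 other genes of PDGF signalling, 1 rose and 3 fell at an adjusted p under 0.05, none was called, and the median log2 fold change was 0.03. The ligands Pdgfa (0.24), Pdgfb (0.03), Pdgfc (-0.45) and Pdgfd (0.03) did not pass. The 4 that did act inside the cell and were named after their values were seen: Src rose (0.37), and Plcg1 (-0.26), Grb2 (-0.27) and Pik3r1 (-0.32) fell. Of 17 genes of the Notch pathway, 2 rose and 1 fell, none was called, and the median was -0.01. The ligands Jag1 (-0.11) and Dll4 (0.23) did not pass. The 3 that did, named after their values were seen, are transcriptional targets: Heyl (0.26) and Nrarp (0.25) rose, and Hes1 (-0.34) fell.

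Each library was given a score for a list, the median over its genes of log2 CPM centred on the mean of the 9 libraries. The score of the 26 fibroblast members was -0.11 to -0.00 in control and 0.07 to 0.14 in cKO and did not overlap. Their summed level was 3188 to 3469 CPM in control and 3587 to 3985 CPM in cKO. Within this list, only the elastic fibre score separated, at -0.25 to 0.03 in control and 0.07 to 0.30 in cKO. The scores and sums of the identity genes, proteoglycans and other secreted proteins overlapped. For the identity genes the scores were -0.0003 to 0.06 in control and -0.05 to 0.12 in cKO. The score of the 7 mural members overlapped, from -0.05 to 0.08 in control and from -0.14 to 0.07 in cKO, and their sum was 1554 to 1689 CPM against 1604 to 1826 CPM. No p is given for these scores, since the genes were chosen with results known.

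Genes that the member list leaves out were counted beside it. Of 36 other fibroblast genes, collagens included, 4 passed higher and 1 lower, with a median log2 fold change of 0.05 and overlapping scores. Their summed level did not overlap, at 10360 to 12120 CPM in control and 12240 to 13620 CPM in cKO. The called genes were Meox1 (0.70, SE 0.09), a homeobox gene, and Scara5 (-1.12, SE 0.30), a ferritin receptor of fibroblasts. Scara5 was no longer called without control replicate 1, 2 or 3, nor with no filter on low counts. Of 19 genes of activated fibroblasts, 11 passed higher, 8 of them called, and 0 passed lower, with a median of 0.44. Their scores did not overlap, at -0.32 to -0.17 in control and 0.12 to 0.39 in cKO. Acta2, Sfrp2 (1.05, SE 0.12) and Ccn5 (1.82, SE 0.26) had the smallest adjusted p of this list. Of 8 other leucine-rich proteoglycans tested, 2 were called higher, Podn and Epyc, and in both the groups overlapped.

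**Figure D4:**
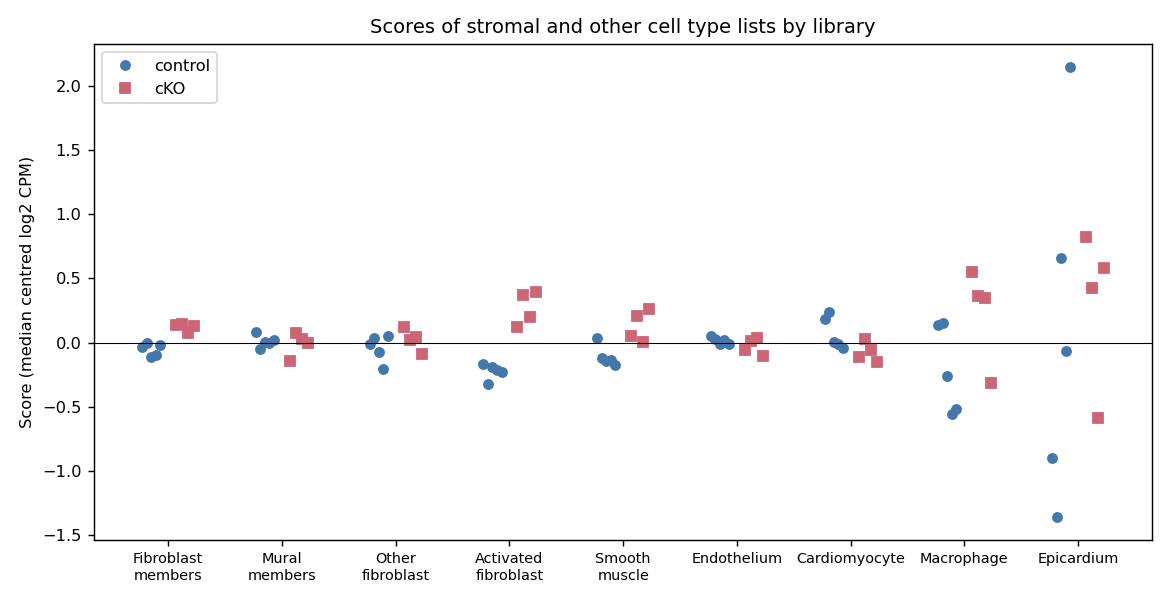
The score of each list (y axis, median centred log2 CPM) is plotted for each library, with circles for control (n = 5) and squares for cKO (n = 4). The fibroblast members and the activated fibroblast genes are separated between the groups, whereas the mural members, the other fibroblast genes and the endothelial genes overlap, and the epicardial score is widest, with control replicate 5 highest at 2.15.

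Markers of other cells moved with the groups in part. The 15 cardiomyocyte genes summed to 74050 to 83850 CPM in control and 65750 to 71290 CPM in cKO, with 3 of 15 passing lower and 0 higher, while their scores overlapped. Of 15 endothelial genes, 2 passed lower, and their sums were 2853 to 2981 CPM and 2790 to 2991 CPM. None of 13 macrophage genes, 6 lymphocyte genes or 8 erythroid genes passed, although 11 of the macrophage genes (median log2 fold change 0.44) and all 8 erythroid genes (median 0.37) had estimates above 0. The macrophage median was 0.16 within the low set and 0.04 within the high set, and the erythroid median 0.04 and 0.81. The macrophage sums were 147.8 to 240.0 CPM in control and 171.5 to 307.1 CPM in cKO, and the T cell genes Cd3e, Cd3g and Cd3d fell under the filter. Of 6 atrial genes, 3 were called: Nppa (3.92), the natriuretic peptide that stressed ventricle also makes, and Myl7 (1.20) were higher, and Stard10 (-1.44) was lower. Their summed level was 196.8 to 289.5 CPM in control and 931.7 to 2598 CPM in cKO, of which Nppa alone made up 113.9 ± 9.18 and 1721 ± 724.0 CPM. The atrial scores overlapped, and the median log2 fold change of the list was 0.01. Of 5 skeletal muscle genes tested Acta1 was called (2.18), and of 2 cartilage and bone genes tested Sox9 (0.76), both higher. In Acta1 the groups overlapped, with cKO replicate 1 within the range of the controls. Of 6 Schwann cell genes 1 passed, higher. The called genes of these lists were named after their values were seen. The part of these shifts in the stromal results was not tested.

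The median coefficient of variation was 9.85% in control and 16.4% in cKO over the members, and 11.2% and 11.96% over all genes tested, with no test of the difference. In 9 of the 33 members, Fmod and Mfap4 among them, the controls varied more than the cKO libraries. Of the 33 members, cKO replicate 2 gave the highest cKO value in 13 and the lowest in 9, and cKO replicate 1 the highest in 12 and the lowest in 8. Replicate 1 held the highest Dcn, Lum, Pdgfra and Fbln1 of the cKO libraries, and replicate 2 the highest Tcf21, Loxl1, Pcolce and Notch3. Replicate 4 was lowest in 11 members, among them Kcnk3, Vtn, Pi16, Gsn and Serping1. Among the controls, replicate 4 was the lowest in 11 and replicate 1 the highest in 11.

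**Figure D5:**
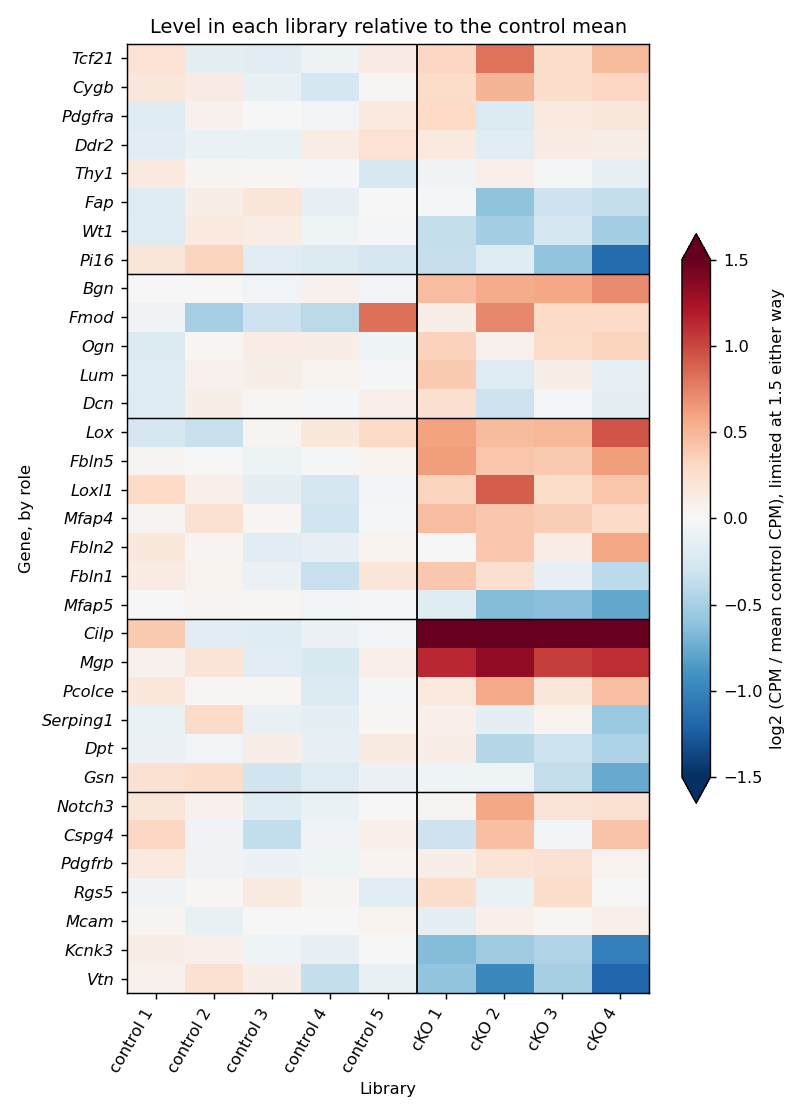
Each row is 1 of the 33 stromal genes, ordered by role and by fold change, and each column is 1 library. Colour is log2 of CPM over the mean control CPM, red for higher and blue for lower, and is limited at 1.5 either way. The rows of Cilp, Mgp and Bgn are red in all 4 cKO libraries, and those of Kcnk3 and Vtn are blue.

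With genotype in the edgeR model, 3 of 33 members differed between the sets (Lox higher in the high set, Pi16 and Gsn lower) beside 4.81% of all genes. The sign of the estimate was the same within both sets for 28 members, including all 14 that passed. In the low set alone, with 5 libraries, Tcf21, Cygb, Wt1, Mfap4, Mfap5, Loxl1 and Pcolce no longer passed. By Xist level, control replicates 2 and 3 and cKO replicates 3 and 4 were female, so both sexes were present in both groups. At an edgeR adjusted p under 0.05, 0 members differed between the sexes and 0 differed in their change between the sexes (2 at an unadjusted p under 0.05). The high set holds 1 cKO library, so a difference in change between the sets was hardly testable.

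For 19 members RefSeq promoter windows were at hand, 23 windows of 250 bases before the start (GRCm38.p6). These were searched on both strands for GGAATG, bound by TEAD factors, for TGANTCA, bound by AP-1, and for TATAAA. Only these exact letters were counted, so that near matches, such as tatataag near the end of the Cilp window, were not. TEAD letters were in 2 of the 23 windows, against 12.6% of all 32851 windows, AP-1 letters in 0, against 6.75%, and TATA letters in 3, against 12.4%. The windows of Cilp (chr9:65264930-65265179, plus strand) and Bgn (chrX:73483351-73483600, plus strand), which rose, held none of these letters. That of Vtn (chr11:78498870-78499119, plus strand), which fell, held the TEAD letters 234 bases before the start and TATA letters on both strands at 137 and 135 bases, which overlap each other. The other TEAD match lay 86 bases before the start of Ogn, and the other TATA matches in the windows of Ogn and Ddr2. The windows of Tcf21, Fbln5 and Pcolce, which also rose, held none of the letters. Some starts lay well inside the annotated gene: by 2380 bases in Pcolce, 21818 in Ddr2, 1202 in Pi16, and 10364 and 26000 in Gsn. The 3 windows shown 5′ to 3′ belong to the largest rise (Cilp), the largest fall (Vtn) and the member with the highest CPM among those that passed (Bgn), with the matched letters in capitals. A match is a description of the letters and not evidence of binding.
Cilp: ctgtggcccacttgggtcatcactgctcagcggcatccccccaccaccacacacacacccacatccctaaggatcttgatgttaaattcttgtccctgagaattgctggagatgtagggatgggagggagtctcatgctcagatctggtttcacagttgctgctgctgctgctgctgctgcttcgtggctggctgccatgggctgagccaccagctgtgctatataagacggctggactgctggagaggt
Bgn: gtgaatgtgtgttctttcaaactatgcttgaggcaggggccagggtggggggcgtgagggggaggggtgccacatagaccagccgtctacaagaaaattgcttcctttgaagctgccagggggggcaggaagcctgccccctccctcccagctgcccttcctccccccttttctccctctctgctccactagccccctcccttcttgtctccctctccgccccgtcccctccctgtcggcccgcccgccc
Vtn: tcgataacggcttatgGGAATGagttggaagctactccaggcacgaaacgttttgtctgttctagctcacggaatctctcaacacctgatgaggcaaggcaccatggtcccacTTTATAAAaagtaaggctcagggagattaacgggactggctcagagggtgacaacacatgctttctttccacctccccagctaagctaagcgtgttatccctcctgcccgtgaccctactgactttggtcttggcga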

How the data were processed

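Libraries were made with a TruSeq stranded mRNA kit and sequenced as single-end reads. The authors deposited raw read counts per gene, 1 column per library, with no normalization. The submitters' processing notes name STAR 2.4.2a, HTSeq 0.6.1 and mm10. Which annotation was counted, and whether strand was used, is not given in the sources used here, so genes that overlap others are uncertain. The table held 0 other sample columns.

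Symbols came from GENCODE M21 on GRCm38, and rows with a symbol carried 99.82% of the counts. Tests were run in R 4.3.3 with the quasi-likelihood test of edgeR 4.0.16 (robust, TMM scaling, filterByExpr with a minimum count of 10, genotype as the only term), two-sided, with Benjamini-Hochberg adjustment over 15318 genes. The thresholds follow the study's methods, which used DESeq2. The study states the number of controls in 2 ways; the 5 libraries labelled as controls were all used. Each p measures the spread between these libraries only. The SE is the log2 fold change divided by the root of F, and 95% intervals come from the same fit. Levels are CPM, also given per kb of exon, and log2 CPM used a prior count of 2. The permutation test used log2(CPM + 0.5). No pair of libraries of a group agreed within counting noise. The test was checked on simulated data. Alternatives were DESeq2 1.42.0, other scalings and filters, the replicate number as a block, library set, Xist and a fibroblast score as terms, other thresholds and leaving out each library. Members were named in full, as were up to 3 called genes with the smallest adjusted p of each related list of stromal and pathway genes. Any other gene of a list was chosen for mention after its value was seen. The members and lists were chosen with earlier results of these data known.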

Additional observations from a re-analysis of the deposited data

Results flagged for a closer look

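In 66 groups of libraries, 1 for each member and genotype, 2 had a library that stood apart from the others of its group by Dixon's test, where chance alone marks about 1 in 20. Fmod was at 24.87 CPM in control replicate 5, against 13.51 CPM in the next highest control. Without that library the log2 fold change of Fmod was 0.67, at an edgeR adjusted p of 0.0148, and Fmod was called. Cilp was at 9.328 CPM in control replicate 1, against 6.92 CPM in the next highest control, and it stayed called in every fit that left out 1 library, with log2 fold changes from 1.75 to 1.95.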

How the results depend on the processing

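Over 20 alternative fits, 601 of 660 estimates of members kept their direction and their side of the adjusted p threshold, 26 lost it, 20 gained it and 13 changed sign. Bgn, Fbln5, Lox, Mgp, Cilp, Kcnk3 and Vtn passed in all 20, and 11 of the 19 members that did not pass never did. The number of members called was 8 with the library set as a term and 8 with the score of the other fibroblast genes as a covariate, the latter chosen after the data were seen; both added Pi16, Bgn and Mfap5. It was 14 with no fold threshold, 2 in a test against a 1.5-fold change, and 3 to 7 when 1 library was left out, with 3 without cKO replicate 4, where Lox and Kcnk3 were lost. The number over all genes was 617 in the low Rps3a3 set alone, of which 518 were shared, 2493 with no fold threshold, 330 against a 1.5-fold change, and 898 to 1154 with 1 library left out. Of 145 genes on the related lists 18 were called, with 39 under no fold threshold, 8 in the test against a 1.5-fold change and 13 to 20 with 1 library left out, counts that were added after the data were seen. The median of the fibroblast members was 0.14 to 0.21 with 1 library left out, and 0.14 without cKO replicate 1. That of the mural members was 0.06 to 0.12, and 0.0277 in the low set alone, where Arid1a was at -0.33 (edgeR adjusted p = 0.0862). The cause of these shifts was not tested, but the low set holds only 5 libraries. None of the members that changed sign (Thy1, Dcn, Lum, Fbln1, Cspg4, Mcam) had passed the test. In the low set Dcn was at 0.0281 and Cspg4 at -0.0688. Fbln1 was at -0.0618 with the set as a term and -0.104 with the fibroblast score. With 1 library left out, Thy1 ran from -0.0881 to 0.0080 (without control replicate 1), Dcn from -0.155 to 0.0338 (without cKO replicate 2), Lum from -0.0728 (without cKO replicate 1) to 0.136, Fbln1 from -0.0702 (without cKO replicate 1; below 0 also without control replicate 4 or cKO replicate 2) to 0.186, and Mcam from -0.0116 (without control replicate 2; below 0 also without cKO replicate 2 or 4) to 0.0612. Replicate numbers were not shown to pair the libraries: same-numbered controls and cKOs correlated at 0.02, 0.04, 0.01 and 0.23. With the replicate block 7 members were called, Pi16 (-0.60) and Fmod (0.66) being added, and 888 genes in all.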
